A study of Mus musculus with 4 samples.

Results

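Wide CTCF regions are stretches of the genome where the CTCF peaks of 4 libraries, laid over each other, joined into more than 1000 bp. They were found by merging all peaks on chromosomes 1 to 19 that shared at least 1 bp with another peak and keeping the merged regions whose length was over 1000 bp. The regions were thus chosen by the measured widths of peaks in all 4 libraries. This gave 282 wide regions out of 28181 autosomal regions, or 1.00%. Of these, 198 held a single peak over 1000 bp in at least 1 library, 69 were wide only because several shorter peaks chained together, and 15 held a peak with a score over 1000 in some library. The last group had been labelled satellite-like beforehand. Its repeat content was not tested here, so these are called high-score wide regions.

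The peaks came from chromatin immunoprecipitation of CTCF followed by sequencing (ChIP-seq) in WEHI-231, a B cell lymphoma line from a BALB/c by NZB F1 mouse. There were 2 libraries of control cells and 2 libraries of cells in which TFII-I, the transcription factor encoded by Gtf2i, was stably knocked down. All were grown in the same medium and precipitated with the same CTCF antibody. Whether the replicates were separate cultures, what the controls carried in place of the knockdown construct, and whether the knockdown line was 1 clone were not stated in the labels, so the spread between replicates may be technical. Each library came as 1 list of peaks in build mm9 with the authors' score per peak, which grows with enrichment and with sequencing depth. The autosomal part of the lists held 23789 peaks in control replicate 1, 23203 in control replicate 2, 18484 in knockdown replicate 1 and 14852 in knockdown replicate 2. Median scores were 112, 108, 85.5 and 79.2 in that order, which all lists of 4 values below follow. Depth is unknown, and a score cannot be compared directly between lists. No mm9 annotation was used, so no region was assigned to a gene.

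CTCF, a zinc finger protein, binds a long motif at insulators, promoters and the bases of chromatin loops. Its binding is point-like, so that the width of an ordinary CTCF peak mostly reflects the length of the sonicated fragments around 1 site. A wider enriched stretch can hold neighbouring sites whose fragments run together. Stretches can also be wide where reads from many repeat copies, such as the satellite arrays next to centromeres or the ribosomal RNA genes, are placed on the few copies present in an assembly.

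Peaks over 1000 bp were rare in every list and fewer in the knockdown lists. The controls had 132 and 133 autosomal peaks over 1000 bp, 0.555% and 0.573% of their peaks. In the knockdown lists there were 44 and 65, or 0.238% and 0.438%. The means were 132.5 ± 0.707 (SD, n = 2) in control and 54.5 ± 14.8 (SD, n = 2) in knockdown, 41.1% of the control mean. The groups did not overlap. Ordinary peaks were narrower in the knockdown lists as well, with a median of 328 and 445.5 bp where the controls had 484 and 508 bp, and knockdown replicate 1 stood lowest in both measures. These widths chose the regions and are therefore given without a test. Peaks over 1000 bp were not mainly weak ones, since their median score was 208, 211, 209.5 and 159 in the 4 lists, well over the median of each list.

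Wide regions were called in more libraries than regions in general. All 4 libraries had a peak in 207 of the 282 wide regions (73.4%), compared with 40.6% of all autosomal regions. Only 7 wide regions (2.48%) were called in both controls and neither knockdown, compared with 10.6% of all regions. The 95% Clopper-Pearson interval of this share was 1.00 to 5.05%. It takes regions as independent and holds counting error only, not the spread between libraries. A further 6 wide regions were called in knockdown libraries alone, compared with 5.59% of all regions. Merging over more libraries makes a region wider, so no test was made of these shares. With every list cut to its 15309 highest peaks, 3.31% of wide regions and 4.06% of all regions were called in both controls only. The 2 shares were thus close once the lists had the same length. With a score of at least 100 required of each peak, the share called in both controls only was 19.1%, and 24.7% over all regions. Without knockdown replicate 1 it was 17.3%, and 26.6% over all regions. Without knockdown replicate 2 these shares were 6.32% and 16.4%. Fewer libraries have to lack a call there. The number of wide regions itself fell to 180 without control replicate 2.

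The 198 regions with a single wide peak were mostly wide in 1 library. A peak over 1000 bp was present in 1 library at 129 of them, in 2 libraries at 36, in 3 at 16 and in all 4 at 17. Control replicate 1 alone accounted for 56 and control replicate 2 alone for 57, while both controls and no knockdown accounted for 25. At the 113 regions where 1 control had a peak over 1000 bp and the other had a shorter call, the narrower control peak had a median width of 627 bp. Knockdown replicate 2 alone was wide at 12 regions and knockdown replicate 1 alone at 4. Over all 198, the median width of the widest peak was 1050.5, 1064, 444.5 and 693 bp. Crossing the 1000 bp line thus differed between replicates of the same group as well as between groups.

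**Figure D1:**
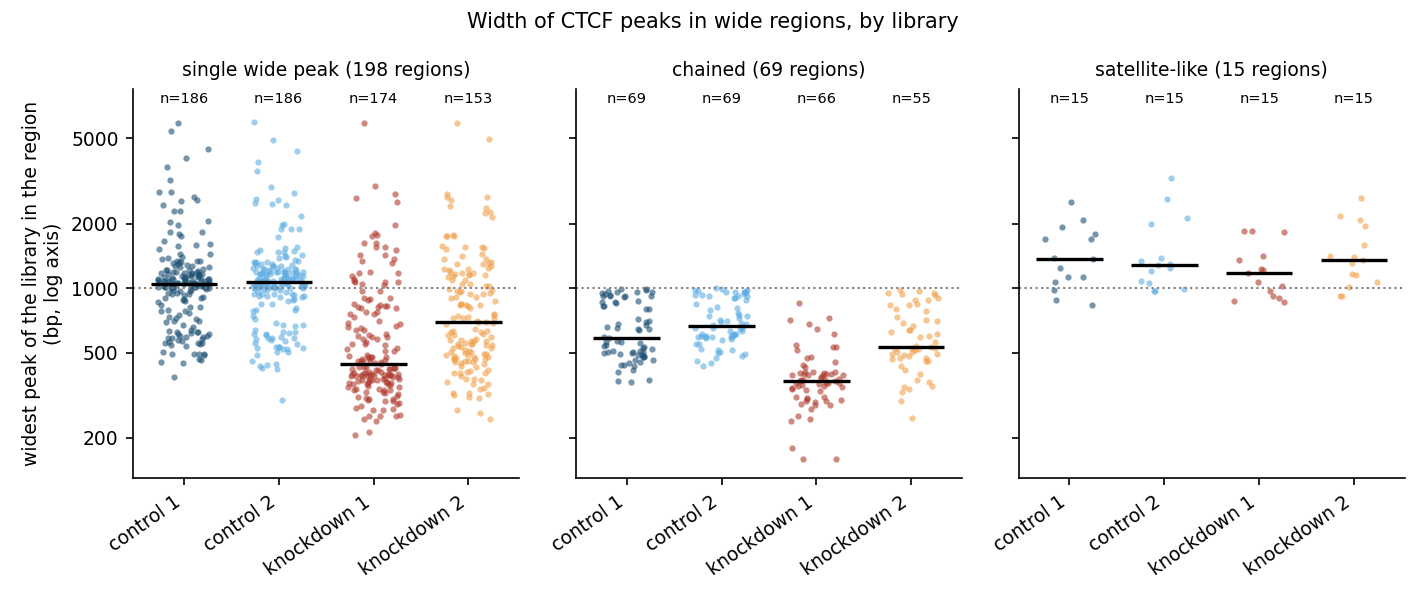
Width of the widest peak of each library (bp, log axis) in every wide region, by class and library; each point is 1 region, black bars are medians, the dotted line is 1000 bp and n counts the regions with a call. In the single wide peak class the knockdown medians (444.5 and 693 bp) lie under the control medians (1050.5 and 1064 bp), while in the satellite-like class, the high-score wide regions, all 4 medians lie between 1180 and 1370 bp.

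The line at 1000 bp cut through a continuous range. There were 96 wide regions up to 1100 bp and 130 regions just outside, from 901 to 1000 bp. On chromosome 2 the region from 119014510 to 119015510 was 1001 bp wide, from 1 control replicate 1 peak of that width. Its peaks in control replicate 2 and knockdown replicates 1 and 2 reached 883, 335 and 505 bp, and its scores in the 4 libraries were 336, 274, 118 and 126. Chromosome 17 from 48237659 to 48238658 fell just outside at 1000 bp. Its widest peaks were 993, 812, 517 and 784 bp and its scores 496, 634, 193 and 235. Both regions had the higher and wider calls in the controls. Also next to the line, a chained region on chromosome 1 from 7386836 to 7387836 had 1001 bp, and a region on chromosome 7 from 16879561 to 16880560 had 1000 bp.

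Among single wide peak regions, pieces were most frequent in knockdown replicate 1. Over all 198, 2 or more peaks were found at 59 regions in knockdown replicate 1, compared with 31, 19 and 19 in control replicate 1, control replicate 2 and knockdown replicate 2. The 4 libraries had a call at 186, 186, 174 and 153 of the 198. This order was not particular to wide regions. Among the 27899 regions up to 1000 bp, 9, 5, 33 and 8 were in pieces, again most in knockdown replicate 1. The regions were chosen by peak width, mostly that of control peaks, which bears on how often each library could be in pieces. Knockdown replicate 1 had the narrowest peaks of the 4 lists, and the part of this in its pieces was not tested. Pieces also occurred in the controls. The region on chromosome 8 from 73153426 to 73154697, among the 4 single wide peak regions of highest mean percentile rank, is one of these. Its widest peaks were 593, 1231, 381 and 318 bp. Control replicate 2 covered it with 1 peak, whereas control replicate 1 and knockdown replicate 2 had 2 peaks each and knockdown replicate 1 had 1. Its scores were 693, 572, 409.9 and 274.

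The 69 chained regions had the form of close pairs of CTCF peaks. In 53 of them at least 1 library held 2 separate peaks, never more, and in 16 no library held more than 1, so that shifted peaks of different libraries made the width. The pairs had a median distance between peak centres of 574, 591.5, 575 and 602.5 bp, over 32, 36, 31 and 11 pairs. The lowest and highest distances were 363 and 833 bp. The gap between both peaks of a pair had a median of 89, 73, 273 and 137 bp, so the median distances between centres were similar while the gaps were larger in the knockdown lists. Both controls held 2 peaks at 24 chained regions. Knockdown replicate 1 held 2 peaks at 17 of these and 1 at 7, and knockdown replicate 2 held 2 at 8, 1 at 11 and none at 5. Chained regions were only slightly over the line, with a median width of 1070 bp and 41 of 69 up to 1100 bp. Their number depended on the lists merged, with 39 left without control replicate 1 and 22 without control replicate 2.

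Named chained regions show both forms. The widest, on chromosome 7 from 117307220 to 117308865, spanned 1646 bp with 2 peaks in each control and 2 in knockdown replicate 1. Its scores were 196, 158 and 55.6, and knockdown replicate 2 had no call. On chromosome 14, from 66215780 to 66217097, the controls had 2 peaks each, knockdown replicate 1 had 1 peak of 375 bp and knockdown replicate 2 had 1 peak of 980 bp that bridged the gap. That region scored 119.6, 108 and 95.1 in the first 3 libraries and 133 in knockdown replicate 2. On chromosome 2, from 172656473 to 172657811, both controls had 2 peaks, with highest scores of 97.0 and 106, and each knockdown library had 1, with scores of 73.6 and 69.1. On chromosome 1, from 26743773 to 26745182, every library had 1 peak, of 916, 923, 856 and 518 bp, and the 4 peaks were offset along 1410 bp. It scored 105, 77.6, 123 and 57.3.

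**Figure D2:**
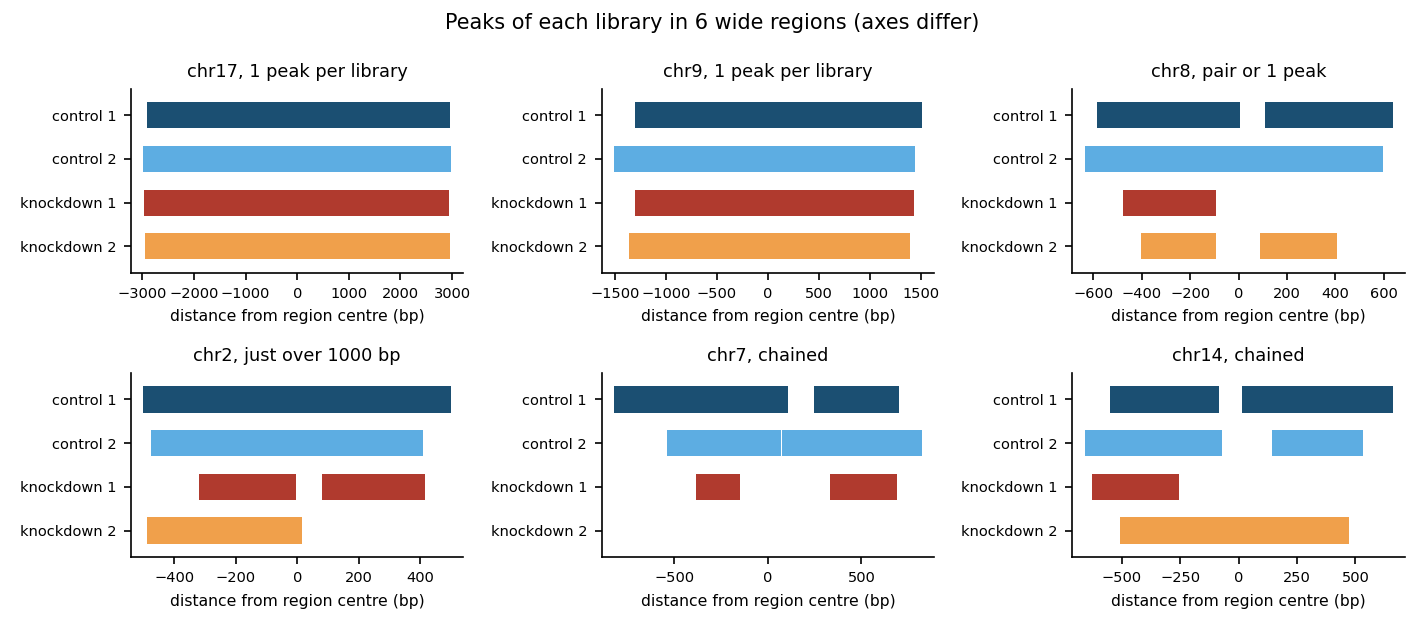
Peaks of the 4 libraries in 6 of the named wide regions, as distance from the region's centre (bp); each bar is 1 peak and the axes differ between panels. The chromosome 17 region of 5963 bp and the chromosome 9 region of 3024 bp were covered over most of their length by 1 peak in every library, while the other 4 show pairs or bridged pairs.

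The 6 widest single wide peak regions differed among themselves. Chromosome 17 from 39979855 to 39985817, 5963 bp, was covered by 1 peak of 5884, 5963, 5900 and 5906 bp. Its left edges fell within 63 bp and its right edges within 46 bp of each other over the 4 libraries. This was closer than usual. The median edge range was 382 bp at the 15 single wide peak regions over 2000 bp called in all 4 libraries. It was 232.5 bp at all 138 single wide peak regions so called. It scored 621, 536 and 626 in the first 3 libraries and 249 in knockdown replicate 2, so knockdown replicate 2 stood apart in score but not in width. On chromosome 8 the region from 19937210 to 19942641 had 1 peak of 5432 bp in control replicate 1 (score 108), 2 peaks in knockdown replicate 1 (highest score 87.4) and no call elsewhere. On chromosome 11 the region from 3000002 to 3004967 was covered over 4815, 4921, 3418 and 3894 bp by 2, 1, 3 and 3 peaks, with highest scores of 370.2, 363, 307 and 153. Also on chromosome 11, 3030650 to 3035619 was called in knockdown replicate 2 alone, with a score of 57.6. On chromosome 1, 85081098 to 85085596 was covered over 4481 and 4362 bp in the controls (scores 102 and 100.3) and 2702 bp in knockdown replicate 1 (score 106), and not called in knockdown replicate 2. On chromosome 2, 90612184 to 90616221 was a peak of 4038 bp in control replicate 1 alone, with a score of 105. Of these 6 regions, 4 therefore scored near or under the median of the list with the call in at least 1 library. Great width thus did not always come with a high score. Among peaks over 1000 bp, Spearman's correlation of width with score was 0.0468 and 0.0276 over the 132 and 133 control peaks, and 0.181 and -0.00970 over the 44 and 65 knockdown peaks. Over all autosomal peaks of a list it lay between 0.152 and 0.281. These values are across peaks of 1 library and describe it only.

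Relative to the controls, knockdown scores were lower than over all regions at those of about 800 to 1200 bp and higher at the widest ones. Over all 11448 autosomal regions called in all 4 libraries, the median ratio of the knockdown score to the mean control score was 0.689 in replicate 1 and 0.608 in replicate 2, which also carries the lower scores of those lists. Regions from 1001 to 1200 bp with no score over 1000 (109 called in all 4) lay below this, at 0.560 and 0.514. So did the 277 regions of 801 to 1000 bp, on the other side of the line, at 0.615 and 0.524. The regions of 1001 to 1200 bp had been chosen mostly through control peaks, since 53, 53, 6 and 8 of them held a peak over 1000 bp in the 4 libraries. Over all peaks of a list wider peaks tended weakly to score higher (correlations of 0.152 to 0.281), but among peaks over 1000 bp they hardly did in most lists. How far these low ratios follow from that choice was not tested, and they only describe the regions. Regions over 2000 bp (15 called in all 4) lay above it, at 1.10 and 0.807. Between them, the 57 regions of 1201 to 1500 bp had 0.670 and 0.526, and the 11 regions of 1501 to 2000 bp had 0.900 and 0.886. The ratio of control replicate 1 to control replicate 2 stayed between 1.02 and 1.18 in all 4 width ranges. The width range of over 2000 bp was chosen with the values known, and no test was made.

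The order of the scores, a description of the same values, was as follows. Knockdown replicate 1 scored above both controls at 8.76% of all regions called in all 4 libraries, and knockdown replicate 2 at 5.43%. Among single wide peak regions of 1001 to 2000 bp this held for 11 of 123 (8.94%) in knockdown replicate 1, near that background, and 2 of 123 in knockdown replicate 2. Among those over 2000 bp it held for 8 of 15 and 3 of 15. Both knockdown libraries scored above both controls at 1.82% of all regions and at 5 of the 207 wide regions called in all 4. Both scored below both controls at 62.5% of all regions, at 79.4% of those of 801 to 1000 bp, at 85 of 123 single wide peak regions up to 2000 bp, at 40 of 54 chained regions and at 4 of 15 single wide peak regions over 2000 bp. Covered length is close to what the regions were chosen by and is given as a description. In the knockdown libraries it was 0.592 and 0.710 times the control mean at the 123 shorter regions (medians) and 0.820 and 0.917 times at the 15 longer ones, and 0.652 and 0.861 times over all regions. The 2 control libraries shared a median of 90.8% of their joint covered bases at the longer regions and 81.0% at the shorter ones.

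**Figure D3:**
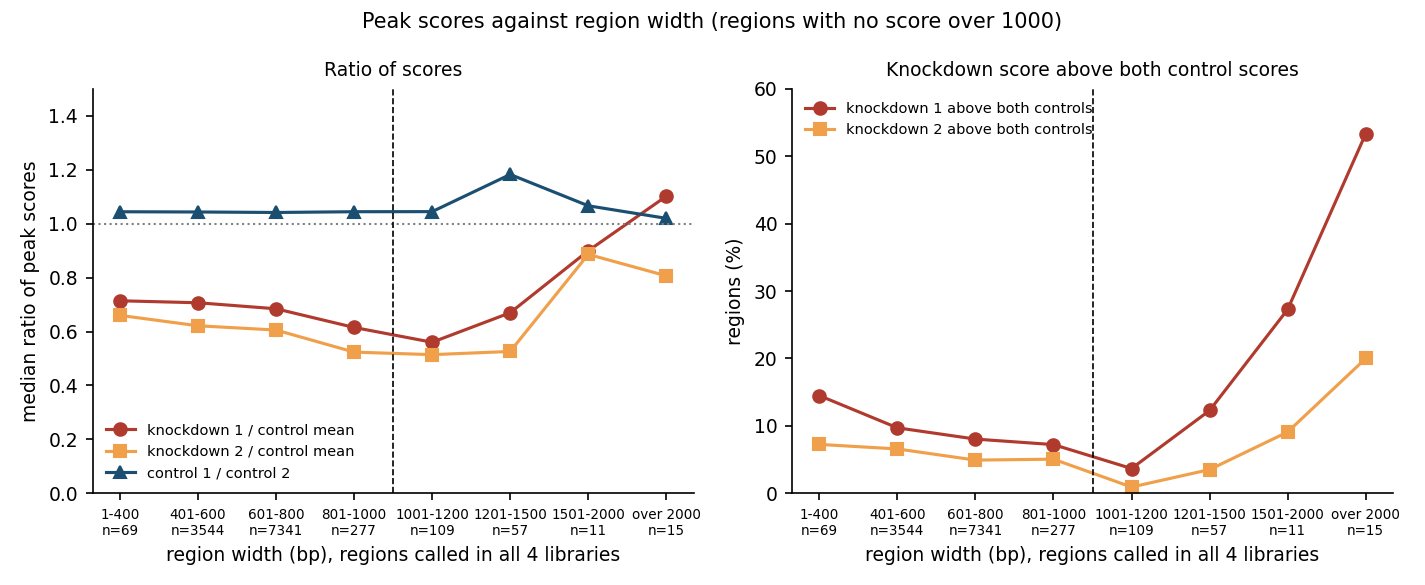
Left, median ratio of peak scores by region width, for each knockdown library over the control mean and for control replicate 1 over control replicate 2; right, percent of regions where a knockdown score exceeded both control scores. Only regions called in all 4 libraries with no score over 1000 are used, n is their number, and the dashed line separates wide regions, whose ratio in knockdown 1 went from 0.560 at 1001 to 1200 bp to 1.10 over 2000 bp.

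The 4 single wide peak regions of highest mean percentile rank, a mean that includes the knockdown scores, did not share 1 direction, and 3 of them were under 2000 bp. Chromosome 9 from 3025043 to 3028066 had 1 peak of 2816, 2960, 2742 and 2758 bp per library with control scores of 760 and 659 and knockdown scores of 932 and 901. Both knockdown scores were above both control scores. Chromosome 5 from 105356259 to 105357880 had peaks of 1404, 1479, 1552 and 1375 bp with control scores of 585 and 548 and knockdown scores of 848 and 592, again with no overlap. The region on chromosome 2 between 181664691 and 181666437 had control scores of 791 and 607, with 965 in knockdown replicate 1 and 362 in knockdown replicate 2, so the knockdown replicates fell on either side of the controls. At the region of chromosome 8 from 73153426, described above, both knockdown scores were below both control scores.

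The 15 high-score wide regions were called in all 4 libraries. Their scores chose them, so the values are a description. The median covered length was 1370, 1295, 1212 and 1356 bp. Knockdown replicate 1 covered less than both controls at 11 of the 15 and more than both at 0, with a median of 0.893 times the control mean, whereas knockdown replicate 2 covered less at 3 and more at 7, with a median of 1.01 times. At 12 of the 15 each library had exactly 1 peak. Knockdown replicate 1 scored above both controls at 12 of the 15, compared with 8.76% of all regions called in all 4. At 2 of the remaining 3 it stood at the score ceiling of 3100, as did control replicate 1. Only knockdown replicate 1 had a score over 1000 at 4 of the 15, which entered the class through it and so had to be higher there. Of the 8 with a score over 1000 in both controls, 5 were higher in knockdown replicate 1. Knockdown replicate 2 scored below both controls at 12 of the 15 and above both at 1. The knockdown libraries therefore lay on opposite sides of the controls at most of these regions. Relative to the control mean their median ratios were 1.32 and 0.810, where all regions had 0.689 and 0.608. The 10 regions with a score over 1000 that were not wide had 1.09 and 0.710. A score over 1000 in any library chose both sets, which bears on these ratios, so they are not read as a trait of wide regions.

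Among the 6 with the highest mean score, chromosome 2 from 98506259 to 98507591 stood at 3100 in every library. Near it, chromosome 2 at 98502086 to 98503236 had control scores of 1880.2 and 1608, with 2374 in knockdown replicate 1 and 1413 in knockdown replicate 2. Chromosome 15 from 74915633 to 74917710 had peaks of 1702, 1997, 1827 and 2077 bp, widest in knockdown replicate 2, where its score was lowest. Chromosome 9 from 2999890 to 3003206 was the widest at 3317 bp and scored 2056, 1907, 2073 and 1609. Chromosome 12 from 68160008 to 68161074 scored 1801, 1572, 1766 and 1193. The region at 3035539 to 3036922 on chromosome 9 gave 1302 and 1312 in control and 1853 and 1408 in knockdown cells, and both knockdown values were higher than both controls there.

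Width did not define the high scores. A further 10 autosomal regions with a score over 1000 were 600 to 855 bp wide. Knockdown replicate 1 was above both controls at 5 of them and below both at 4. Chromosome 4 from 137838548 to 137839217, for instance, went with control scores of 1034 and 1049 and knockdown scores of 526 and 505, whereas chromosome 6 from 103598873 to 103599503 scored 2043 and 1584 against 2241 and 2081. These 2 were picked after their values were seen.

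**Figure D4:**
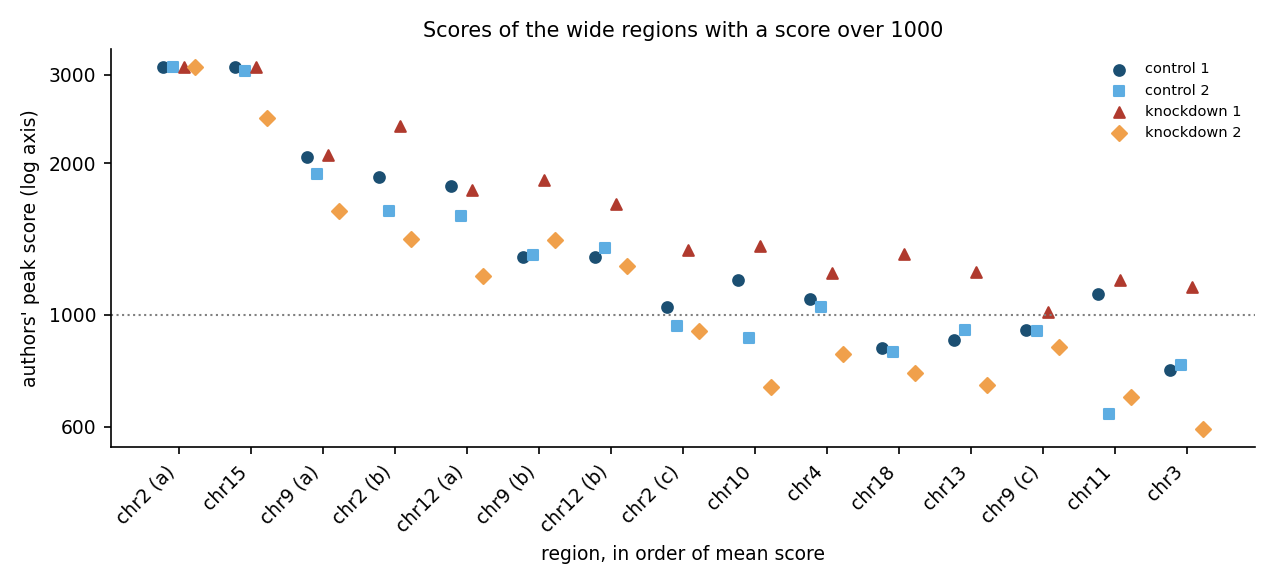
The authors' peak score (log axis) in each library for the 15 wide regions with a score over 1000, in order of mean score; letters tell regions of 1 chromosome apart and the dotted line is a score of 1000. Knockdown 1 lies above both controls at 12 of the 15 regions and knockdown 2 below both at 12.

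Part of the wide regions lay close to other wide regions. When wide regions with centres at most 250 kb apart were joined, 11 groups of 3 or more held 68 of the 282 wide regions (24.1%). The spans of these groups held 198 of the 28181 autosomal regions (0.703%). Each span runs from the first to the last wide region of its group. A high share of wide regions in the spans therefore follows from how the groups were made. The groups took 63 of 198 single wide peak regions, 3 of 15 high-score ones and 2 of 69 chained ones. Of the 32 wide regions over 2000 bp, 22 lay in a group, compared with 46 of the 250 shorter ones. Joining distances of 100 and 500 kb gave 56 and 76 grouped regions. Per chromosome, wide regions made up between 0.363% of regions (chromosome 13) and 2.36% (chromosome 8). Outside the groups, 174 wide regions had no other wide region within 250 kb, and the rest lay in pairs.

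The largest group lay on chromosome 8 from 19687077 to 20033351, where 25 of 82 regions in 346 kb were wide. The share was 1.00% over all regions, but the span was drawn around its wide regions, so a higher share is by construction. Of these 25, 24 held a single wide peak, 8 were over 2000 bp, and the highest score was 542. The 4 libraries had calls in 20, 22, 22 and 18 of them. Peaks covered 15.1%, 16.2%, 12.5% and 12.9% of the span. Both controls were higher than both knockdown libraries in this share, which is tied to the widths that chose the regions. Covered length was lower in the knockdown libraries elsewhere too. Over all regions called in all 4 libraries it was 0.652 and 0.861 times the control mean (medians). Knockdown replicate 1 scored above both controls at 2 of the 15 called in all 4. On chromosome 1 the group from 85081098 to 85339784 had 8 wide regions among 29, called 8, 8, 7 and 3 times in the 4 libraries in the same order. Peaks covered 13.2 and 12.0 kb of its wide regions in the controls, 8.08 kb in knockdown replicate 1 and 1.80 kb in knockdown replicate 2. These lengths are tied to the choice of regions as well. Another group on chromosome 1, from 173444717 to 173495028, held 5 wide regions among 6.

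**Figure D5:**
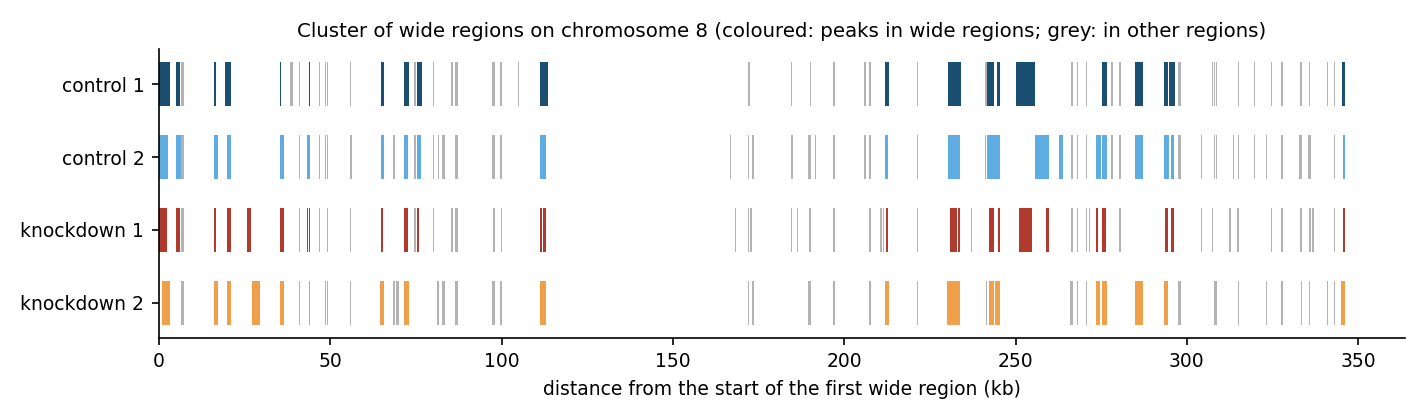
Peaks of each library along the chromosome 8 group of wide regions, as distance from the start of its first wide region (kb); coloured bars are peaks in the 25 wide regions and grey bars peaks in the other regions of the span. All 4 libraries have wide calls along the span, with a gap in the middle where no library has a wide region.

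Wide regions were also frequent at the lowest coordinates of chromosomes. A start below 3.5 Mb was found for 17 of the 282 wide regions (6.03%), compared with 0.518% of all regions. Centromeres of mouse chromosomes lie at this end. The 17 came from 8 chromosomes and comprised 6 of the 15 high-score regions, 11 single wide peak regions and no chained region. On chromosome 9, from 2999890 to 3036922, 8 of 10 regions within 37.0 kb were wide, of 1185 to 3317 bp. Of the 7 called in all 4 libraries, knockdown replicate 1 scored above both controls at 7 and knockdown replicate 2 at 3. This group differed in that order from the chromosome 8 group, where 2 and 1 of 15 did so. The chromosome 9 group held 3 high-score regions and the chromosome 8 group held none. Knockdown replicate 1 was above both controls at 12 of all 15 high-score regions. A test of the difference was not made. On chromosome 11, from 3000002 to 3100228, 3 of 6 regions were wide, and 2 of these were called in a knockdown library alone.

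Wide regions called in 1 group alone were few. Neither knockdown library had a call at 14, of which 7 were called in both controls, 4 in control replicate 1 alone and 3 in control replicate 2 alone. Neither control had one at 6. Over all 28181 autosomal regions, 10.6% were called in both controls and neither knockdown and 5.59% in knockdown libraries only. A call in 1 library alone was found at 5557 of all regions and at 13 of the 282 wide ones. Merging over more libraries makes a region wider, so low counts here are tied to the choice of regions. The widest called in both controls and neither knockdown was on chromosome 16 from 3246474 to 3248443, with peaks of 1832 and 1738 bp and scores of 94.7 and 62.1. Knockdown replicate 1 had its nearest peak 10052 bp off and knockdown replicate 2 had it 94905 bp off. Chromosome 9 from 64026284 to 64027672 had peaks of 596 and 1389 bp with scores of 98.7 and 141. The next was chromosome 17 from 57358450 to 57359701, scoring 101 and 119.5. All 6 wide regions without a control call lay in the 11 groups and were called in 1 knockdown library each. Their place in a group is partly by construction, since they were counted when the groups were made. The group on chromosome 11 and that on chromosome 1 from 87480518 had 3 wide regions each, the minimum, with such regions among them. The 3 widest were that of knockdown replicate 2 on chromosome 11 at 3030650, chromosome 11 from 3097246 to 3100228 in knockdown replicate 1 (2983 bp, score 187) and chromosome 9 from 3003864 to 3006114 in knockdown replicate 2 (2251 bp, score 116). No wide region had calls in both knockdown libraries but none in the controls.

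Score ranks within each list put wide regions lower in the knockdown lists, which were also shorter. Of the 198 single wide peak regions, 138 were over 1000 bp in a control and in no knockdown. Over all autosomal peaks of each list wider peaks tended weakly to score higher, so the ranks are not independent of how the regions were chosen. With 100 as the highest peak of a list, the 207 wide regions called in all 4 libraries had a mean percentile rank of 82.5, 79.7, 72.1 and 69.3. The whole lists behind these ranks held 24467, 23873, 19076 and 15309 peaks. A given place from the top is a lower percentile in a shorter list. The knockdown mean was 70.7 ± 1.99 (SD, n = 2) and the control mean 81.1 ± 1.98 (SD, n = 2), a difference of -10.4 points. Over all 11448 regions called in all 4 libraries the means were 66.0 ± 0.342 (SD, n = 2) in control and 57.4 ± 2.83 (SD, n = 2) in knockdown, a difference of -8.53 points. With every list cut to its 15309 highest peaks, the difference was -5.65 points for wide regions and -0.50 points for all regions. The two-sided exact permutation test over libraries gave p = 0.333 for the wide regions with whole lists, the smallest value that 2 against 2 libraries allow, and nothing is read from it. Chained regions stood at 72.3 and 59.5 and single wide peak regions at 82.5 and 71.9 (control and knockdown means), while the high-score regions are at the top of each list and could hardly move. With wide regions taken as those over 1500 bp, the difference was 2.82 points in the other direction, over 32 regions.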

How the data were processed

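CTCF ChIP-seq peaks of 2 control and 2 knockdown libraries were used as deposited. Per the submitters' processing notes, BWA, HOMER and mm9 were involved, without versions or roles. Per the files, peak names begin with MACS. The labels do not state the caller's settings or an input. The authors deposited 1 list per library with a score per peak, from 50.0 to 3100, read as within-list values. Depth is unknown. Positions are as listed, with width as end minus start plus 1.

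Peaks on chromosomes 1 to 19 were merged at 1 bp of overlap. No 2 peaks of 1 list touched. Where a library had several peaks in a region, its highest score was used. Samples were grouped by title. Regions were named by a rule on width, mean score and mean rank. Chromosome 18 was left out of naming (4 wide regions). The class of scores over 1000, the regions and the rule were chosen with earlier results of these data known. Alternatives were a 500 bp merging distance, a score of at least 100, lists of 15309 peaks, 1500 bp as the line, leaving out each library, and within-replicate differences. Grouping distances were chosen after seeing the data. Calculations used python 3.11.15 with pandas 2.3.3, scipy 1.17.1 and numpy 2.4.6, and matplotlib 3.10.9 for plots. Merging and classes were tested on simulated data, where 1000 of 1000 regions were classed as made.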

Additional observations from a re-analysis of the deposited data

How the results depend on the processing

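Merging peaks up to 500 bp apart gave 710 wide regions, 504 of them chained, with a median covered length 385.5 bp greater in control than in knockdown (302.5 bp as reported). Requiring a score of at least 100 gave 27 chained regions and a share of 19.1% called in both controls only (24.7% of all regions). Lists of equal length gave 43 chained regions and a control excess of 66.5 peaks over 1000 bp (78 as reported). With 1500 bp as the line there were 49 wide regions, 39 with a single wide peak, 4 chained and 6 high-score, the excess of such peaks was 8, and the rank difference turned to 2.82 points. A stricter line or score leaves fewer regions by construction, and the cause of the turn was not tested. With any 1 library left out there were 180 (without control replicate 2) to 272 wide regions and 22 to 64 chained ones. The control excess in covered length was 253.5 to 392.5 bp. The share of wide regions called in controls only was 4.04% and 3.33% without control replicates 1 and 2. Over all regions it was 18.8% and 19.9%. Without knockdown replicates 1 and 2 it was 17.3% and 6.32% of wide regions, and 26.6% and 16.4% of all regions. The replicate block gave the same 78 peaks, a description without a test because widths chose the regions, and the same -10.4 points. For the points the exact sign-flip p was 0.5, the smallest 2 pairs allow, and nothing is read from it. Same-numbered libraries deviated together with a correlation of 0.0145, so the number is not read as a pairing. The rank difference could be judged on direction alone, since its test cannot pass a threshold. It was -5.65 points with lists of equal length, where all regions gave -0.50 points, and from -11.2 to -9.01 points with 1 library left out. Without depth or tag counts, a narrower or lower peak from fewer reads cannot be told apart from less CTCF.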

Other observations

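The sex chromosomes and the mitochondrial genome lay outside the rule and were examined after the other values were known. On chromosome X, 22 of 871 merged regions were over 1000 bp, from 1001 to 4017 bp, and 21 of them held a single wide peak. On chromosome Y, 13 of 63 regions were over 1000 bp, up to 10680 bp. Of the wide regions called in all 4 libraries, knockdown replicate 1 scored above both controls at 9 of 18 on chromosome X and 6 of 9 on chromosome Y, and knockdown replicate 2 at 2 of 18 and 2 of 9. On the autosomes these counts were 34 and 8 of 207. The same shares over all regions of chromosomes X and Y were not computed. The counts therefore cannot be read as a trait of the wide regions there. The mitochondrial genome was 1 region of 6562 bp with a score over 1000.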
